A study of Mus musculus with 6 samples.

Results

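The miR-15/16 family, with its relatives miR-195, miR-497 and miR-322, was described by small RNA sequencing in the prefrontal cortex of aged mice. The 6 members were chosen by name, and they are 6 of the 1189 entries listed for every library. All mice were wild-type C57BL/6 males of 18 months (the sample names carry another age), with 1 library per mouse, and all had gone through behavioral tests before the brain was taken. The 3 mice of the PND (postoperative neurocognitive disorder) group were exposed to 1.5% isoflurane for 30 min and then had an exploratory laparotomy of 30 min under isoflurane, with lidocaine cream and povidone iodine on the wound afterwards. The 3 mice of the CON group had no anesthesia and no operation, so the parts of the treatment cannot be told apart from each other. The tissue was bulk cortex, in which fewer cells of a type and less RNA per cell cannot be told apart.

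A miRNA is a short RNA that is cut from a hairpin and guides the silencing complex to mRNAs that pair with its seed, bases 2 to 8 from the 5′ end. miRNAs of the miR-15/16 family repress cyclins, cyclin-dependent kinases and the survival factor Bcl2, and they are known for holding cells out of the division cycle. Most neurons of the adult cortex no longer divide. miR-16 is also known as a repressor of the serotonin transporter, and it is abundant in blood cells.

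The mature sequences are shown because they define the family and show how close its members are. Capitals mark bases 2 to 8, and the sequences are those of RefSeq on GRCm38.p6, written 5′ to 3′.
mmu-miR-16-5p: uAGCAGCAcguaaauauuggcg
mmu-miR-195a-5p: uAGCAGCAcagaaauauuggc
mmu-miR-497a-5p: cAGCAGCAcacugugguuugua
mmu-miR-15a-5p: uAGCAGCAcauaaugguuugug
mmu-miR-15b-5p: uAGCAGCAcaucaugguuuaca
mmu-miR-322-5p: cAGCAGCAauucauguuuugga

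All 6 members carry the same 7 bases, and outside the seed some are closer to each other than others. miR-16-5p and miR-195a-5p were identical at 19 of 21 compared positions, with the differences G10A and U11G, written as the base of miR-16-5p, the position from the 5′ end and the base of miR-195a-5p. miR-15a-5p and miR-15b-5p were identical at 18 of 22 positions. The nearest member to miR-497a-5p was miR-15a-5p, with 17 of 22 positions identical, and the nearest to miR-322-5p was miR-15b-5p, with 16 of 22. miR-322-5p was the member without a C after the seed (C9A against miR-16-5p), and it differed from miR-16-5p at 10 of 22 positions. Of the 10 mature miRNAs with this seed in the RefSeq table, 6 are the members, and 1 more is listed in the files. This was miR-195b, whose values lay between 0 and 5 reads in the 6 libraries. The other 3 were not analysed here.

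The members come from 4 clusters of hairpins, given here by the GENCODE M21 positions on GRCm38. The hairpins Mir15a (chr14:61632027-61632110) and Mir16-1 (chr14:61631880-61631972) lie within 231 bp in the noncoding gene Dleu2, Mir15a in an intron and Mir16-1 touching an annotated exon. Mir15b (chr3:69009772-69009835) and Mir16-2 (chr3:69009902-69009996) lie within 225 bp in an intron of Smc4, which encodes a condensin subunit. Mir497 (chr11:70234717-70234800) and Mir195a (chr11:70235042-70235135) lie within 419 bp, and Mir497b is annotated on the opposite strand across Mir497. Mir322 (chrX:53054255-53054349) overlaps no other annotated gene, and it shares a stretch of 6353 bp with the hairpins of miR-503, miR-351, miR-542, miR-450a and miR-450b. Mature miR-16-5p is the same molecule from both of its loci, so its reads cannot be assigned to Mir16-1 or Mir16-2.

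The deposited values are reads scaled to a total of 1000000 over the listed entries of a library (CPM). The libraries held between 14849461 and 19471226 reads on miRNAs, so a level of 3 reads, taken as the floor, was 0.154 to 0.202 CPM. This floor and the intervals given for single libraries cover counting error only. A pair of the CON libraries stood apart. CON mouse 1 had a summed level of 1646 CPM over 8 miRNAs of epithelial or olfactory tissue, against 67.0 to 198 CPM in the other 5 libraries, with miR-141-3p at 0 in CON mouse 2. CON mouse 2 had the largest share of miR-128-3p, a neuronal miRNA and the most abundant entry, at 29.2% of its reads against 17.6% to 23.2% in the others. The 4 neuronal markers had a sum of 279250 to 314047 CPM in the PND group and 306166 to 370685 CPM in the CON group. Most of this sum was miR-128-3p and miR-9-5p. CON mouse 2 had the highest sum through miR-128-3p, at 292349 CPM. Its levels of miR-9-5p (74050 CPM), miR-124-3p (4018 CPM) and miR-138-5p (268 CPM) were each the lowest of the 6 libraries. The 5 erythroid markers summed to 112 to 191 CPM and 84.9 to 117 CPM, with miR-144-3p and miR-144-5p at 0 in some libraries. Most of this sum was miR-486a-5p and miR-486b-5p. miR-451a was at 40.9 CPM in PND mouse 1, against 0.621 to 3.08 CPM in the other 5 libraries. The sums in PND and CON were 13326 to 13992 and 11991 to 14372 CPM for the 2 endothelial markers, and 8727 to 9898 and 6689 to 9670 CPM for the 2 mural markers. They were 305 to 337 and 283 to 333 CPM for the 5 leukocyte markers, 1575 to 1765 and 1384 to 1607 CPM for the 3 oligodendrocyte markers, and 773 to 802 and 586 to 932 CPM for the 2 choroid plexus markers. For each of the 8 lists the groups overlapped, and the part of these cell types in the levels of the family was not tested.

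miR-16-5p was the dominant member by a wide margin. It was measured at 711, 833 and 830 CPM in the PND mice and at 790, 692 and 722 CPM in the CON mice. This placed it between rank 83 and rank 89 of the entries in each library. It made up 78.0% ± 1.05 (SD, n = 6) of the reads of the 6 members, from 76.3% in CON mouse 2 (Wilson 95% interval 75.5% to 77.0%) to 78.9% in CON mouse 3 (78.2% to 79.5%). The 6 members together held 0.0908% to 0.108% of all miRNA reads.

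miR-195a-5p, known for the withdrawal of heart muscle cells from division after birth, was next. Its levels were 142.9, 157 and 164 CPM in the PND mice and 151, 168 and 136 CPM in the CON mice, and its share of the family was 14.8% to 18.5%. miR-497a-5p, from the same cluster, reached 26.5, 35.2 and 42.3 CPM in the PND mice and 31.5, 26.7 and 31.1 CPM in the CON mice. Within every library miR-16-5p exceeded miR-195a-5p, by 4.12 to 5.33 times, and miR-195a-5p exceeded miR-497a-5p, by 3.86 to 6.30 times. miR-497a-5p in turn exceeded miR-15a-5p by 2.28 to 4.13 times in each library. These ratios between different miRNAs were not corrected for unequal ligation of adapters.

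The remaining members were near 10 CPM. miR-15a-5p, which lies next to miR-16-1, had 11.6, 13.8 and 16.7 CPM in the PND mice and 11.1, 6.46 and 12.0 CPM in the CON mice. miR-322-5p, the mouse counterpart of human miR-424, had 7.65, 11.0 and 12.8 CPM in the PND mice and 8.31, 6.26 and 7.70 CPM in the CON mice. miR-15b-5p, which lies next to miR-16-2, had 8.37, 9.83 and 10.2 CPM in the PND mice and 9.62, 8.01 and 7.27 CPM in the CON mice. In all 3 of these members the PND and CON values overlapped, and PND mouse 3 was the highest library. miR-15a-5p was above miR-322-5p in 6 of 6 libraries, but by as little as 1.03 times in CON mouse 2. miR-322-5p and miR-15b-5p could not be ordered, since each was the higher one in 3 of 6 libraries, with means of 8.96 ± 2.45 and 8.89 ± 1.17 CPM (SD, n = 6).

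**Figure D1:**
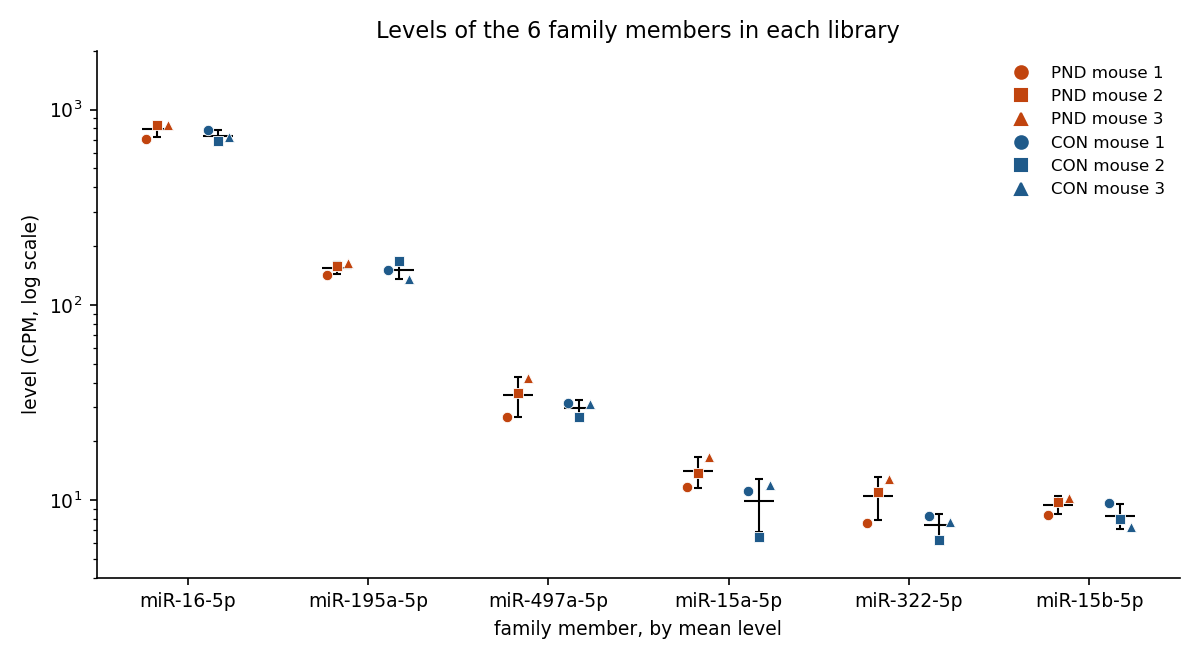
Level in CPM (vertical log axis) of each of the 6 members in the 3 PND libraries (orange) and the 3 CON libraries (blue), with the group mean and SD as black bars. miR-16-5p lies between 692 and 833 CPM, miR-195a-5p between 136 and 168 CPM, and miR-15a-5p, miR-322-5p and miR-15b-5p between 6.26 and 16.7 CPM, with overlapping groups for every member.

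The members differed in how much they varied between mice. The coefficient of variation over the 6 libraries was 8.21% for miR-16-5p and 8.05% for miR-195a-5p. It was 18.4% for miR-497a-5p, 13.2% for miR-15b-5p, 28.1% for miR-15a-5p and 27.4% for miR-322-5p. Counting error alone would give from 0.887% for miR-16-5p to 8.37% for miR-322-5p, below the measured value for each of the 6 members. The lowest value of miR-15a-5p, in CON mouse 2, rested on 96 reads, with a Poisson 95% interval of 5.24 to 7.89 CPM. The other 5 libraries had at least 170 reads of it, and their intervals began at 9.52 CPM or higher.

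CON mouse 2 also set the members of the chromosome 11 cluster apart from each other. It was the highest library for miR-195a-5p and the lowest for miR-16-5p, miR-15a-5p and miR-322-5p. For miR-497a-5p it was the second lowest, at 26.7 CPM against 26.5 CPM in PND mouse 1. The ratio of miR-195a-5p to miR-497a-5p was thus 6.30 in this library and 3.86 to 5.39 in the others.

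Over the 6 libraries, the level of miR-16-5p on the log2(CPM + 1) scale had a Pearson correlation of 0.92 with miR-322-5p, 0.89 with miR-15b-5p, 0.88 with miR-497a-5p, 0.77 with miR-15a-5p and 0.30 with miR-195a-5p. Among the other miRNAs averaging 10 CPM or more over the libraries, the most similar to miR-16-5p were miR-23b-3p, with a correlation of 0.97, miR-181a-5p, with 0.96, and miR-93-5p, with 0.95. miR-23b-3p had 425, 483 and 475 CPM in the PND mice and 450, 424 and 425 CPM in the CON mice. All these correlations are descriptions over the same 6 libraries, whose shared scaling enters each of them. The correlation of miR-16-5p with miR-128-3p, the largest entry, was -0.84.

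The opposite arm of a hairpin is usually degraded, and the arm sequences shown here are those whose levels departed from this or that tell the loci apart. Capitals again mark bases 2 to 8.
mmu-miR-322-3p: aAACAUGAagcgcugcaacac
mmu-miR-503-5p: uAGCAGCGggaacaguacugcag
mmu-miR-503-3p: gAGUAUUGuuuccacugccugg
mmu-miR-16-1-3p: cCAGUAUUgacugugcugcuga
mmu-miR-16-2-3p: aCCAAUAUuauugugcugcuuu

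For miR-322 the arm outside the family was the more abundant one. miR-322-3p had 32.0, 29.5 and 31.6 CPM in the PND mice and 29.3, 25.6 and 29.8 CPM in the CON mice, which is 2.47 to 4.18 times the level of miR-322-5p in the same library. The 3p arm was higher in 6 of 6 libraries. miR-503, from the neighboring hairpin, had the same order, with miR-503-3p at 3.82 to 15.4 times miR-503-5p. miR-503-5p had only 7 to 28 reads per library, and its seed differs from that of the family in its last base.

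The other hairpins had more of the 5p arm in 6 of 6 libraries. miR-15a-5p was 7.29 to 13.4 times miR-15a-3p, miR-195a-5p was 4.71 to 6.31 times miR-195a-3p, and miR-15b-5p was 1.95 to 3.98 times miR-15b-3p. miR-497a-3p had 3 reads in CON mouse 3 and 0 in the other libraries, so no ratio was formed.

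The 3p arms of miR-16 are the products that differ between its loci. miR-16-1-3p, from Dleu2, had 10.8, 15.2 and 14.1 CPM in the PND mice and 11.3, 7.68 and 15.3 CPM in the CON mice. miR-16-2-3p, from Smc4, had between 4 and 17 reads per library. The ratio of miR-16-1-3p to miR-16-2-3p was 15 to 28.5. The 5p products next to them did not show such a gap, as the ratio of miR-15a-5p to miR-15b-5p was 0.807 to 1.65.

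**Figure D2:**
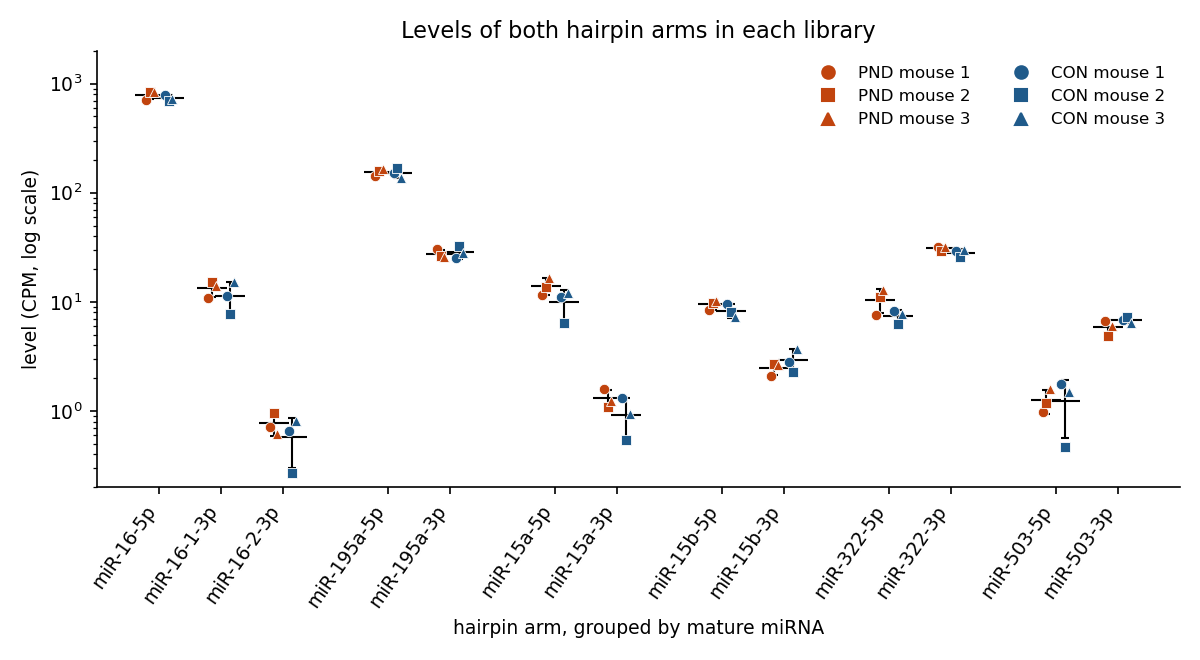
Level in CPM (vertical log axis) of the arms of the hairpins shown, in the 3 PND libraries (orange) and the 3 CON libraries (blue). Black bars give the group mean and SD. Both arms of miR-497a are left out, and miR-497a-3p had 0 reads in 5 libraries. The 3p arm lies above the 5p arm for miR-322 and miR-503, and miR-16-1-3p lies above miR-16-2-3p in every library.

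The comparison of PND with CON asked whether the family changed in the cortex after anesthesia and operation. No member passed the test. The limits of the study are an unadjusted p under 0.05 together with a change of more than 1 on the log2 scale in either direction. In limma on log2(CPM + 1), fitted on all 1189 entries, 0 of the 6 members met both, against 0.0841% of all entries (1 entry). The study reported more differentially expressed miRNAs at these limits, with p-values from edgeR and fold changes from its normalized values. The share given here is that of the limma fit and is not the count of the study. With the limit on p alone, 0 of the 6 passed, against 5.13% of all entries (61 entries). edgeR's quasi-likelihood test, edgeR's exact test and DESeq2 on the recovered reads also gave 0 members with an unadjusted p under 0.05. For these tests the share among all entries was not taken, so their counts have no background beside them. The groups overlapped for all 6 members. Among all entries, 7.91% had every PND library above every CON library and 2.02% the reverse. For a list of 6, a count of 0 is near these shares.

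The abundant members differed little. miR-16-5p averaged 791 ± 70.0 CPM after the operation and 735 ± 49.9 CPM in CON (SD, n = 3 each). Its log2 fold change was 0.11 (standard error 0.11, 95% interval -0.15 to 0.36, limma adjusted p = 0.77, by the Benjamini-Hochberg method over all entries). The interval spans 0.901-fold to 1.28-fold. With each mouse left out, the log2 fold change of miR-16-5p ran from 0.064 without CON mouse 2 to 0.18 without PND mouse 1. For miR-195a-5p the groups were at 154.5 ± 10.6 and 152 ± 16.2 CPM (SD, n = 3 each), and the log2 fold change was 0.03 (standard error 0.13, 95% interval -0.26 to 0.32, limma adjusted p = 0.965). Both values turned below 0, to -0.017 and -0.091, when the libraries were scaled by TMM factors.

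The members with the largest differences were miR-15a-5p and miR-322-5p. Their coefficients of variation over the 6 libraries were also the largest, but these contain the difference between the groups. miR-15a-5p averaged 14.02 ± 2.53 CPM in PND and 9.86 ± 2.97 CPM in CON (SD, n = 3 each). Its log2 fold change was 0.50 (standard error 0.25, 95% interval -0.08 to 1.07, limma adjusted p = 0.77), and with each mouse left out it ran from 0.25 without CON mouse 2, the library with 96 reads, to 0.65 without CON mouse 3. miR-322-5p was at 10.5 ± 2.62 CPM against 7.43 ± 1.05 CPM (SD, n = 3 each). Its log2 fold change was 0.43 (standard error 0.21, 95% interval -0.07 to 0.92, limma adjusted p = 0.77). Without PND mouse 1 it was 0.62, with an unadjusted p of 0.017 and an adjusted p of 0.59 from limma, and without PND mouse 3 it was 0.28. PND mouse 1 was also the library with the highest sum of erythroid markers, 191 CPM, and its part in this value was not tested.

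miR-497a-5p had a log2 fold change of 0.19 (standard error 0.19, 95% interval -0.25 to 0.63), and miR-15b-5p had 0.17 (standard error 0.17, 95% interval -0.21 to 0.56). The values of miR-497a-5p were 34.7 ± 7.93 and 29.8 ± 2.69 CPM, and those of miR-15b-5p were 9.47 ± 0.974 and 8.30 ± 1.20 CPM (SD, n = 3 each). The adjusted p was 0.77 from limma for both. With each mouse left out, the log2 fold change of miR-497a-5p ran from 0.04 without PND mouse 3 to 0.37 without PND mouse 1, and that of miR-15b-5p from 0.094 without CON mouse 3 to 0.27 without CON mouse 1.

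All 6 members had a log2 fold change above 0, with a median of 0.18. This has to be read beside the abundant entries of the profile. Of the 361 entries with a mean of at least 10 CPM, 286 (79.2%) were also above 0, with a median of 0.14. TMM factors brought that median to 0.02 and DESeq2 size factors to -0.01. miR-322-5p and miR-15b-5p, with means of 8.96 and 8.89 CPM, are not among these 361 entries. Of the members, miR-15a-5p, miR-322-5p, miR-497a-5p and miR-15b-5p lay above the median of 0.14, and miR-16-5p and miR-195a-5p lay below it. With TMM factors the log2 fold changes were 0.39 for miR-15a-5p, 0.32 for miR-322-5p, 0.074 for miR-497a-5p and 0.064 for miR-15b-5p.

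**Figure D3:**
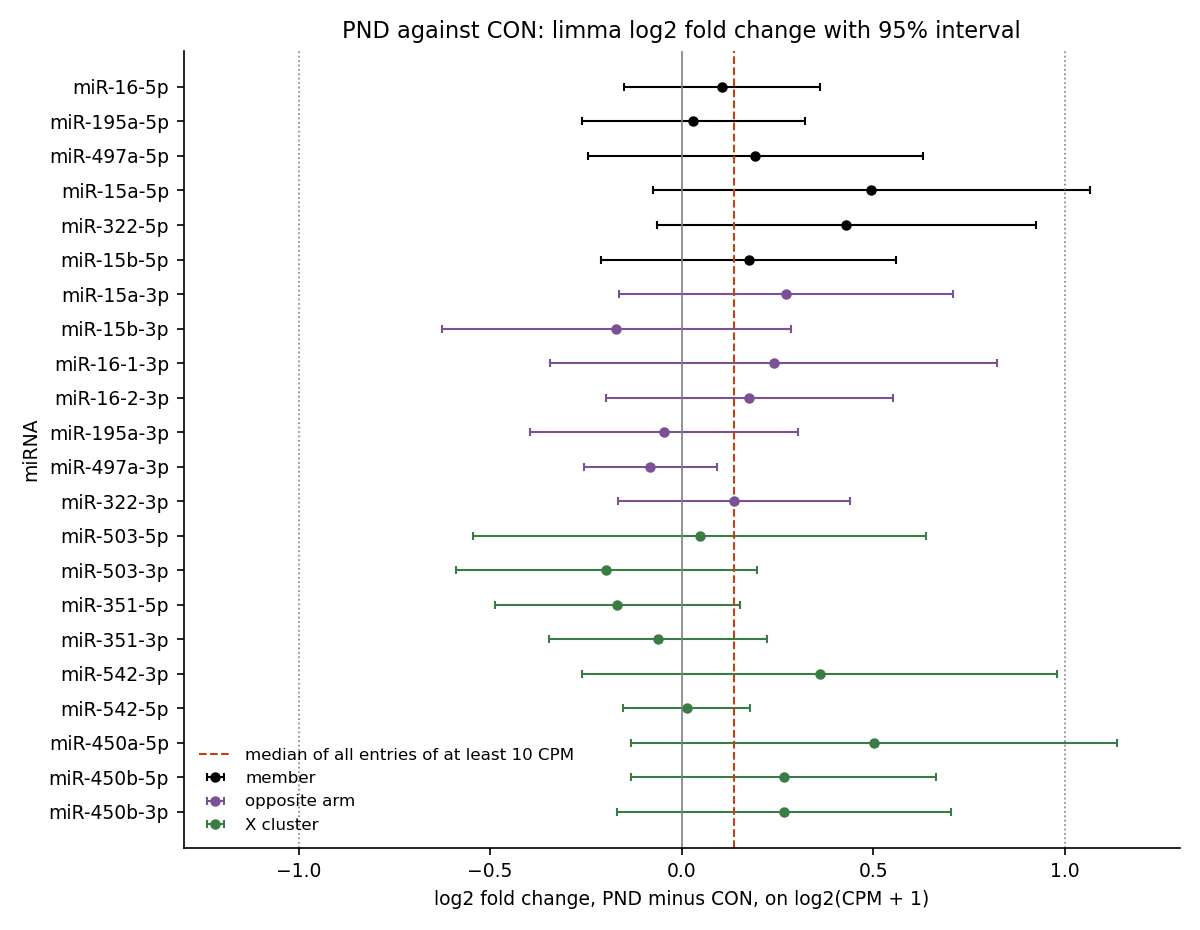
Log2 fold change, PND minus CON, on log2(CPM + 1) (horizontal axis) with its 95% interval from limma, for the 6 members (black), the 7 opposite arms (purple) and the 9 other entries of the X chromosome cluster (green). Dotted lines mark the limits at -1 and 1 and the dashed line the median of 0.14; every interval spans 0. miR-497a-3p and miR-542-5p had between 0 and 3 reads per library.

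The summed level of the 6 members, which share the seed, was 908, 1060 and 1076 CPM in the PND mice and 1002, 908 and 916 CPM in the CON mice. PND mouse 1 lay level with CON mouse 2, below the other libraries. The log2 ratio of PND to CON was 0.10 (p = 0.4 in a two-sided exact permutation test, where 3 mice against 3 cannot go below 0.1). Without miR-16-5p it was also 0.10 (p = 0.4 in the same exact test). The ratio depended on the scaling. It was -0.017 with TMM factors (exact permutation p = 0.9), -0.047 with DESeq2 size factors (exact permutation p = 0.7), and 0.02 with miR-128-3p left out of the library totals (exact permutation p = 0.5). CON mouse 2, with a TMM factor of 0.860 against 0.992 to 1.07 in the other libraries, moved from among the lowest sums to the highest under TMM and DESeq2 scaling. Over the 6 libraries the coefficient of variation of the sum was 8.01% as deposited and 5.14% with miR-128-3p left out of the totals.

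**Figure D4:**
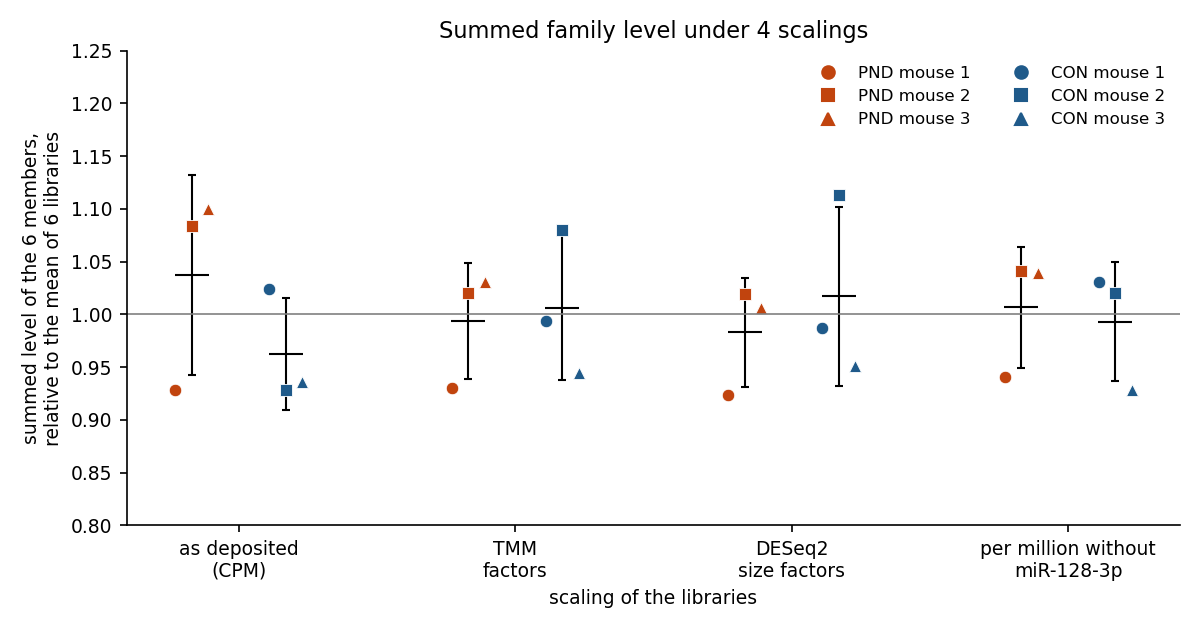
Summed level of the 6 members in each library, divided by the mean of the 6 libraries (vertical axis), under 4 ways of scaling the libraries, with PND in orange, CON in blue and the group mean and SD as black bars; the axis starts at 0.8. The groups overlap under each scaling, and CON mouse 2 has the highest sum with TMM and DESeq2 factors.

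Shares within the family do not depend on the scaling of the library. The share of miR-16-5p was 78.0% ± 0.743 in the PND group and 78.0% ± 1.48 in the CON group (SD, n = 3 each), a difference of 0.032 percentage points (p = 1 in a two-sided exact permutation test). The share of miR-322-5p was 0.843%, 1.04% and 1.19% for PND against 0.830%, 0.690% and 0.841% for CON. Of 6 shares compared, this was the one without overlap between the groups (two-sided exact permutation p = 0.1, the lowest that 3 against 3 allows). With no difference between the groups, such a result has a rate of 0.1 per share. The gap was narrow, as PND mouse 1 and CON mouse 3 had 0.843% and 0.841%, and the counting intervals of these libraries (Wilson, 95%) overlapped, that of PND mouse 1 running from 0.719% to 0.989%. For miR-15a-5p the share was 1.38% ± 0.149 in the PND group and 1.04% ± 0.304 in the CON group (exact permutation p = 0.3). For miR-195a-5p it was 15.3% ± 0.460 and 16.1% ± 2.05 (exact permutation p = 0.9).

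Of 11 ratios between arms or between neighbors that were tested, 1 had groups that did not overlap. With no difference between the groups, such a result has a rate of 0.1 per ratio, and 1 of 11 is near that rate. The ratio of miR-15b-5p to miR-15b-3p was 3.98, 3.68 and 3.85 for PND against 3.42, 3.50 and 1.95 for CON (two-sided exact permutation p = 0.1, again the lowest possible). The difference was 0.42 on the log2 scale, and 0.15 without CON mouse 3. miR-15b-3p had 34 to 60 reads per library. The arm ratio of miR-322 (exact permutation p = 0.4) and the ratio of miR-15a-5p to miR-15b-5p (exact permutation p = 0.4) had overlapping groups.

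None of the other products of these loci passed the test. Among all entries, 0.0841% met both limits and 5.13% met the limit on p alone. For lists this short, counts of 0 are near these shares. Of the 7 opposite arms, 4 had a log2 fold change above 0 and 3 below, 0 had an unadjusted p under 0.05, and the lowest adjusted p was 0.77 in limma. Of the 9 other entries of the X chromosome cluster, 6 were above 0 and 3 below, 0 had an unadjusted p under 0.05, and 2 had every PND library above every CON library, against 7.91% of all entries. miR-450a-5p, the more abundant of these 2, had 7.04, 8.24 and 8.36 CPM in PND against 6.87, 3.03 and 6.71 CPM in CON. The log2 fold change of 0.50 (standard error 0.27, limma adjusted p = 0.77) became 0.18 when CON mouse 2 was left out. miR-450b-5p had 10 to 31 reads per library, with a log2 fold change of 0.27 (standard error 0.17, limma adjusted p = 0.77). miR-351-5p, at 18.7 to 24.4 CPM, had a log2 fold change of -0.17 (standard error 0.14, limma adjusted p = 0.77).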

How the data were processed

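Small RNA libraries from prefrontal cortex (3 PND and 3 CON mice, grouped by the treatment labels) were analysed. The authors deposited CPM values (which the study calls TPM), made by filtering reads with fastx, aligning them with Bowtie (version 0.12.2 with builds mm8 and mm9 in the submitters' processing notes) and assigning them to miRBase miRNAs. How reads matching more than 1 miRNA were assigned is not given in the sources used here, so miR-16-5p and miR-195a-5p could share reads. All values (100%, within 0.05 reads) were whole multiples of 1 read, and each column sums to 1000000 within rounding, so no TMM scaling remains in it. The recovered reads served for depth and the count tests.

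limma 3.58.1 (trend, R 4.3.3) was fitted on log2(CPM + 1) of all 1189 entries, which understates changes of low entries. It was tested on simulated data with changes larger than those of the members. The power for changes of the members' size was not tested. Sums, shares and ratios were compared by exact permutation tests over mice. edgeR 4.0.16 and DESeq2 1.42.0 on the recovered reads, other scalings, filters and a pseudocount of 0.1, and leaving out each mouse were alternatives. Leaving out mice for ratios and for the order was added after seeing the data. Named miRNAs were the members, their opposite arms, the X cluster, entries of the same seed, the 3 most correlated with miR-16-5p, the marker lists, and miR-128-3p and miR-497b. Members and lists were chosen with earlier results of these data known. No libraries of a group agreed within sampling noise. Of the entries, 997 matched the RefSeq miRNA table by name.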

Additional observations from a re-analysis of the deposited data

How the results depend on the processing

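No member was called under any of the 17 alternatives run for the calls, and 1 member (miR-322-5p) had an unadjusted p under 0.05 without PND mouse 1, so that count ran from 0 to 1 with each mouse left out. The share among all entries was not taken for these alternatives. The log2 fold changes of miR-15a-5p, miR-497a-5p, miR-15b-5p and miR-322-5p stayed above 0 in each alternative that gave a value. miR-15b-5p and miR-322-5p gave none with a mean of at least 10 CPM required. miR-16-5p turned to -0.017 with TMM factors, edgeR's quasi-likelihood test and edgeR's exact test, to -0.046 with DESeq2 size factors and to -0.047 with DESeq2 on reads. miR-195a-5p turned to -0.091 with TMM factors, -0.12 with DESeq2 size factors, -0.055 with miR-128-3p left out of the totals, -0.11 with both edgeR tests and -0.14 with DESeq2, and ran from -0.047 to 0.11 with each mouse left out. The family sum turned to -0.017 with TMM factors and -0.047 with DESeq2 size factors, and ran from 0.06 to 0.18 with each mouse left out. The difference in the share of miR-16-5p ran from -0.83 to 0.46 percentage points with each mouse left out. The order of levels kept 4 of 6 places without PND mouse 2 or PND mouse 3, where miR-322-5p and miR-15b-5p changed places, and 6 otherwise. With each mouse left out, the group difference in the log2 arm ratio ran from -0.21 to 0.26 for miR-15a, from 0.15 to 0.57 for miR-15b, from -0.0058 to 0.21 for miR-195a and from -0.22 to 0.78 for miR-503, and that in the log2 ratio of miR-16-5p to miR-195a-5p ran from -0.043 to 0.14. The cause of these changes was not tested.

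Same-numbered mice of the groups share a number, and the labels name no other link between them. Their deviations from the group means over 361 entries correlated at -0.13, 0.12 and 0.51. With the replicate block in limma 0 members were called and 0 had an unadjusted p under 0.05. The adjusted p of miR-15a-5p and miR-322-5p was 0.75 in that limma fit. The share among all entries was not taken for it, so these counts have no background beside them. miR-15a-5p, miR-15b-5p and miR-322-5p had the fewest reads, 93 to 295 per library, and for each of the 6 members the spread between mice was wider than counting error.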

Other observations

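Mir497b lies across Mir497 on the opposite strand, and its product miR-497b had 7 to 18 reads per library, with means of 0.845 ± 0.174 CPM for PND and 0.710 ± 0.238 CPM for CON (SD, n = 3 each). miR-195b, which has the family seed and differs from miR-195a-5p at 3 of 21 positions (U17G, G19A and C21A, with the base of miR-195a-5p named before the position), was listed with 0, 0 and 1 reads for PND and with 5, 2 and 0 for CON. CON mouse 1 was the library with more than 3 reads of miR-195b.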
